A study of Xenopus laevis with 6 samples.

Results

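Differences between sibling batches of Xenopus laevis embryos were measured in 6 of the 6 RNA-seq libraries of the study, 2 from each of 3 batches. A batch is 1 replicate number of the study's titles, and the members were taken by that number alone: the intact and the half-size library of replicate 1, of replicate 2 and of replicate 3. X. laevis, the African clawed frog, is an allotetraploid species in which many genes are present as 2 homeologs, one on each subgenome, written with the endings L and S. The study itself compared embryos of normal and of reduced size. Here the size group was a block, and the genes described differ by replicate number, not by size.

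All embryos were wild type, came from in vitro fertilisation, were dejellied in cysteine and were collected whole at late gastrula, stage 12.5 of Nieuwkoop and Faber. Intact embryos were left untreated. Half-size embryos, called twinned siblings in the titles, developed from single blastomeres separated when the embryo had 2 cells. Each batch thus held 1 library of untreated embryos and 1 library of half-size embryos related to them as siblings. The titles number 3 replicates, and the labels do not say how many parents or embryos went into one, nor whether the numbers stand for different days or mothers. The p-values therefore measure the spread between these libraries. Differences in parents, in the day of work and in how far the embryos had developed at collection cannot be told apart from the replicate number.

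Late gastrula is the time at which the blastopore closes and the germ layers take their final order. In Xenopus the genes of the early organizer and of mesendoderm induction, such as gsc, mix1 and the nodal genes, are switched on at the start of gastrulation and decline during it. Hox genes, which give cells their position along the head-to-tail axis, are switched on in the posterior mesoderm and neural plate during gastrulation, and the genes of muscle structure follow the muscle regulators myf5 and myod1 towards neurula stages.

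Library totals ranged from 20069300 to 29284864 counts, so that 1 count was worth between 0.0346 and 0.0504 CPM (counts scaled to a common library size after TMM normalisation), and the 100 most abundant genes took between 21.8% and 22.9% of the counts. Of 27 defining markers of the germ layers and the organizer, 26 reached 1 CPM in every library. The exception was tp63.L. Over genes with at least 20 counts in a pair of libraries, the chi-square statistic divided by its degrees of freedom lay between 13.3 and 24.9 for the 3 pairs of libraries from the same batch, and between 34.2 and 91.3 for the 12 pairs from different batches. No pair of libraries therefore agreed within sampling noise, and the libraries of a batch were closer to each other than to any library of another batch.

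The batches differed in a large share of the genes. The quasi-likelihood F test of edgeR, with the batch tested and the size group as a block, called 11120 of 22679 genes at an adjusted p of 0.05 (49.0%). Of the genes tested, 5047 were called and differed by at least 2-fold between a pair of batches (22.3%), 1639 by at least 4-fold (7.23%) and 381 by at least 16-fold (1.68%). Batch 2 was most often at an extreme. It was the highest batch for 4469 genes called (19.7%) and the lowest for 4344 (19.2%), against 3797 (16.7%) and 4204 (18.5%) for batch 1 and 2854 (12.6%) and 2572 (11.3%) for batch 3.

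In pairs, batch 2 and batch 1 differed in 9215 genes (40.6%), of which 4784 were higher in batch 2 (21.1%) and 4431 lower (19.5%). Batch 3 and batch 2 differed in 7004 genes (30.9%), 3506 higher in batch 3 (15.5%) and 3498 lower (15.4%). Batch 3 and batch 1 differed least, in 4992 genes (22.0%), 2682 higher in batch 3 (11.8%) and 2310 lower (10.2%). At least 4-fold differences were called in 1114 genes between batches 2 and 1 (4.91%), 800 between batches 3 and 2 (3.53%) and 641 between batches 3 and 1 (2.83%). These 3 comparisons share libraries with each other. Each batch has only 2 libraries, and with 2 residual degrees of freedom the error against which a batch difference is read is the disagreement of intact and half-size libraries about that difference. Leaving out a library leaves 1 in its batch, lowers the residual degrees of freedom and changes the number of genes tested. A lower count or a lost call then need not show dependence on that library. Without the half-size library of batch 2 the count for batches 2 and 1 was 5938. The count for batches 3 and 1 was 2488 without the intact library of batch 3 and 3206 without its half-size library. The count for batches 3 and 2 was 4413 and 3999 without the intact or the half-size library of batch 2, and 4303 without the intact library of batch 3.

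For scale, the size comparison in the same libraries called 0 of 21673 genes with edgeR when the batch was left out of the model (0%), with 776 genes at an unadjusted p under 0.05. With the replicate number as a block it called 1283 (5.92%). The largest difference between any 2 batches had a median of 0.63 log2 units over the genes tested and a 90th percentile of 1.75. The absolute difference between half-size and intact libraries had a median of 0.18 and a 90th percentile of 0.59. These measures are not alike. The first takes the largest of 3 comparisons of 2 against 2 libraries, the second a single comparison of 3 against 3. Noise alone would therefore make the first larger, and the gap was not corrected for this. The biological coefficient of variation, the spread beyond counting error, was 34.1% with the size group alone in the model and 11.5% with batch and group. In log2 CPM, batch took a median of 73.0% of a gene's variance over the 6 libraries (interquartile range 46.4% to 89.3%, with 40% of the degrees of freedom), size 8.97% (with 20%) and the remainder 9.22% (with 40%).

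Batch differences seen in intact embryos were read in the half-size embryos, which are separate libraries. Of 409 genes at least 4-fold higher in batch 2 than in batch 1 among intact libraries, 384 (93.9%) were at least 2-fold higher among half-size libraries, with a median of 2.70 log2 units in intact and 2.66 in half-size embryos. Over all 18912 genes of at least 1 CPM, 9.99% were that much higher. Of the 165 genes at least 4-fold lower, 157 (95.2%) were at least 2-fold lower in half-size embryos. The share was least for genes higher in batch 3 than in batch 1, at 177 of 223 (79.4%). Across these genes, which are not independent replicates, the differences in intact and in half-size libraries had a Pearson r of 0.85 for batches 2 and 1, 0.74 for batches 3 and 1 and 0.83 for batches 3 and 2, as the scatter of batch differences shows.

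**Figure D1:**
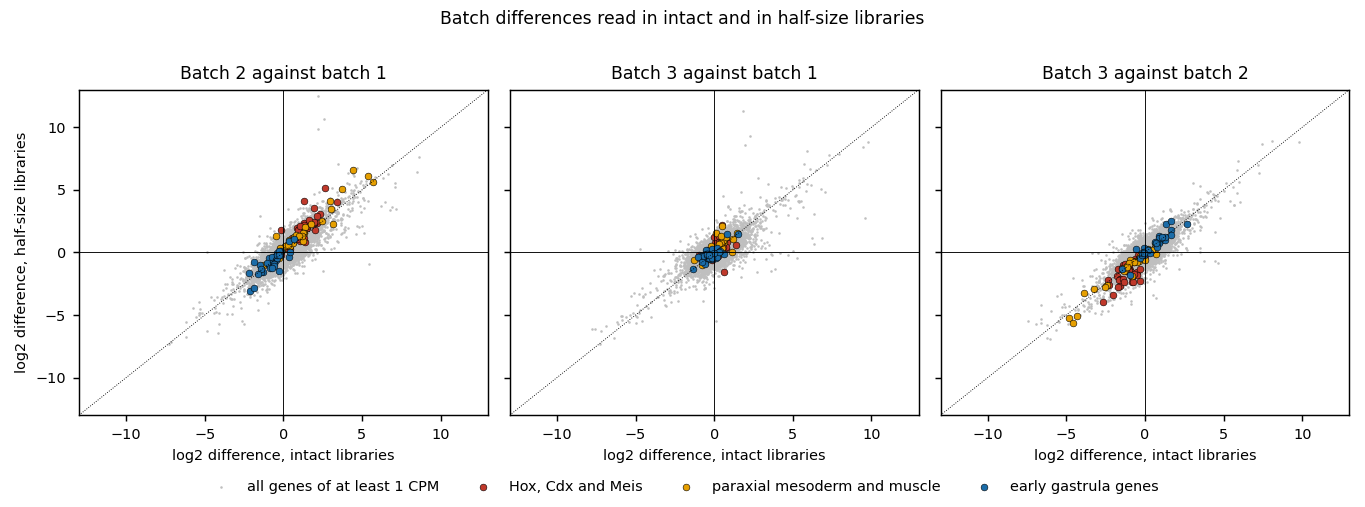
Log2 difference between batches in intact libraries (horizontal axis) and in half-size libraries (vertical axis) for 18912 genes of at least 1 CPM, with the members of 3 gene lists in colour and the line of equal difference dotted. Hox, Cdx and Meis genes and muscle genes lie towards the upper right for batch 2 against batch 1, and early gastrula genes towards the lower left.

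How often a difference was called depended on the level of the gene. Below a mean of 1 CPM 30.1% of 3767 genes were called, between 1 and 10 CPM 47.3% of 8552, between 10 and 100 CPM 58.5% of 8303, and from 100 CPM upwards 52.6% of 2057. The median of the largest batch difference fell over the same classes from 1.13 to 0.75, 0.50 and 0.33 log2 units. A gene was tested when it reached about 0.421 CPM in at least 2 of the 6 libraries, the number in a batch, and a minimum total count. For 593 genes only libraries of 1 batch reached that level, so that these had to differ, and 448 of them were called. They stay in the counts above and in those of the gene lists. In those lists, a percentage over all genes for both libraries of a batch above or below the 4 others is of the 22679 genes tested, called or not. Of the 11120 genes called, 3797, 4469 and 2854 were highest in batches 1, 2 and 3, and 4204, 4344 and 2572 were lowest.

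The Hox list had 1 direction between batch 2 and the others. It holds the Hox genes with the Cdx, Meis and Pbx transcription factors that act with them, and 56 of its 73 genes in the table were tested. The F test called 50 of the 56 (49.0% over all genes), and all 50 were highest in batch 2 (4469 of the 11120 called over all genes). Between batch 2 and batch 1, 49 were higher in batch 2 and 0 lower, and between batch 3 and batch 2, 47 were lower in batch 3 and 0 higher, while batches 3 and 1 differed in 3 genes upward and 2 downward. Both libraries of batch 2 lay above the 4 others for 51 of the 56 genes (20.4% over all genes). The 6 genes not called were cdx1.S, hoxa11.L, hoxa11.S, hoxd13.S, pbx3.L and pbx3.S. For 6 of the genes called only 1 batch reached the level needed for testing. Without them 44 of 50 were called, all 44 highest in batch 2.

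Among the anterior Hox genes, hoxb1.S stood at 7.23, 32.5 and 9.49 CPM in the intact libraries of batches 1, 2 and 3 and at 5.20, 26.6 and 7.20 CPM in the half-size libraries. The lower of the batch 2 values was thus well above the highest value of the other batches. Its log2 difference between batch 2 and batch 1 was 2.26 ± 0.15 (SE; edgeR adjusted p = 3.28e-06), and between batch 3 and batch 1 it was 0.43 ± 0.16 (edgeR adjusted p = 0.0772). The paralog hoxd3.L went from 0.873 and 0.681 CPM in batch 1 to 10.3 and 12.6 CPM in batch 2, with 2.41 and 1.099 CPM in batch 3 (intact value first). The log2 difference between batches 2 and 1 was 3.88 ± 0.34 for hoxd3.L and 2.60 ± 0.29 for its homeolog hoxd3.S (SE; edgeR adjusted p = 1.33e-05 and 6.33e-05). Both copies therefore separated batch 2 from the rest.

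In the trunk part of the clusters, hoxc8.L measured 5.15, 16.02 and 7.03 CPM in intact embryos and 3.24, 15.6 and 5.68 CPM in half-size embryos. The largest difference among the genes called was that of hoxb7.L, at 0.540, 3.81 and 0.541 CPM in intact embryos and 0.0852, 5.997 and 0.303 CPM in half-size embryos. Its log2 difference between batches 2 and 1 was 3.93 ± 0.52, and moved between 2.96 and 5.91 when single libraries of batches 1 and 2 were left out, as single libraries of batch 1 held few counts. The smallest difference was that of hoxd1.S, 0.28 log2 units, and hoxd1.L, the direct retinoic acid target of early gastrula, also differed little, with 84.5, 113 and 86.7 CPM in intact embryos and 64.3, 108 and 75.1 CPM in half-size embryos. Both hoxd1 copies exceeded 60 CPM in all libraries, and their calls were lost without the half-size library of batch 2 and, for hoxd1.S, also without the intact one.

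By paralog group the shift had a similar size along the clusters. The median difference between batches 2 and 1 was 1.67 log2 units over 15 tested genes of groups 1 to 3, 1.82 over 17 genes of groups 4 to 8 and 1.79 over 15 genes of groups 9 to 13. No test of a difference between these groups was made. Over the whole list the median was 1.298 in intact and 1.87 in half-size libraries, against 0.00 and 0.02 over all genes tested. For batch 3 against batch 2 it was −1.02 and −1.54. Of 22 Hox, Cdx, Meis and Pbx genes with both homeologs tested, both copies were called in 19, and in all 19 both were highest in batch 2. In a whole embryo, fewer cells that express a gene and less RNA per cell cannot be told apart, here and in every result that follows.

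The list also holds cofactors and upstream regulators of Hox genes. The cofactor meis1.L rose from 8.31 and 9.71 CPM in batch 1 to 20.7 and 21.4 CPM in batch 2, with 12.2 and 13.5 CPM in batch 3. Among the caudal genes, which activate posterior Hox genes, cdx1.L stood at 5.24, 14.8 and 7.28 CPM in intact embryos and 3.92, 16.4 and 7.16 CPM in half-size embryos, whereas its far more abundant homeolog cdx1.S lay between 349 and 393 CPM in all 6 libraries (F test, edgeR adjusted p = 0.925). The genes cdx2.L and cdx4.L were higher in batch 2 by 0.33 ± 0.10 and 0.36 ± 0.09 log2 units than in batch 1, and both calls were lost without either library of batch 2. With batch as the only term these calls were lost too, as were those of hoxd1.L and hoxd1.S.

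**Figure D2:**
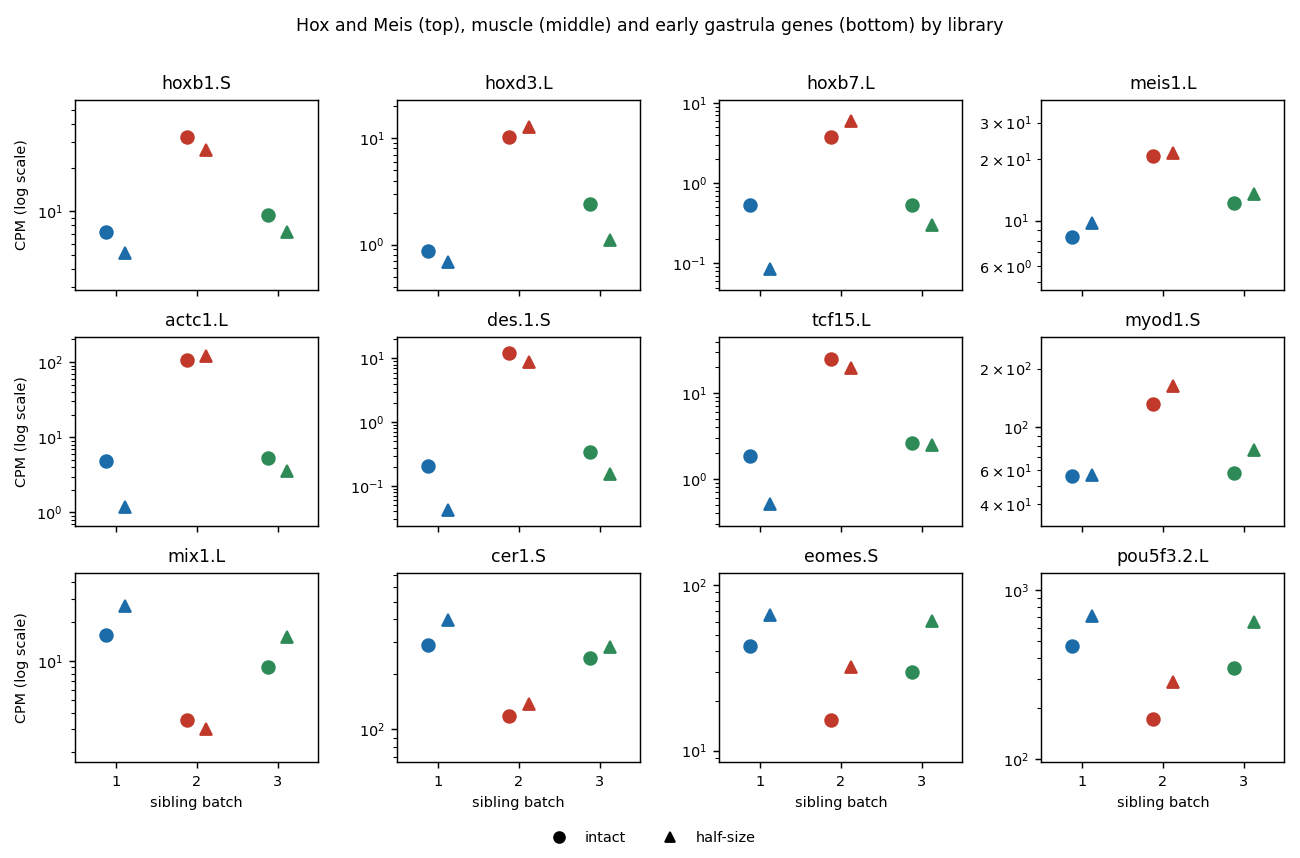
CPM on a log scale for 4 Hox and Meis genes, 4 muscle genes and 4 early gastrula genes in each library, by sibling batch (circles intact, triangles half-size; each point is 1 library). Both libraries of batch 2 lie above the 4 others in the upper 8 panels and below them in the lower panels, except for eomes.S, where the half-size library of batch 2 lies above the intact library of batch 3.

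Muscle and paraxial mesoderm genes were also highest in batch 2. Of 57 genes of the list with a row, 43 were tested, and the F test called 34 (49.0% over all genes). Of the 34, 30 were highest in batch 2 (4469 of the 11120 called over all genes). Between batches 2 and 1, 28 were higher and 4 lower in batch 2, and between batches 3 and 2, 28 were lower and 3 higher in batch 3. The median difference between batches 2 and 1 was 0.80 log2 units in intact and 0.98 in half-size libraries. For 5 of the genes called only 1 batch reached the level needed for testing, and without them 29 of 38 were called, 25 of these highest in batch 2.

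Cardiac actin is part of the contractile apparatus. The cardiac actin homeolog actc1.L, which is expressed in embryonic skeletal muscle of Xenopus, stood at 4.78, 107 and 5.26 CPM in intact embryos and 1.19, 121 and 3.56 CPM in half-size embryos, and actc1.S at 14.8, 122 and 22.5 CPM in intact embryos and 13.97, 152 and 25.5 CPM in half-size embryos. The log2 difference between batches 2 and 1 was 3.24 ± 0.13 for actc1.S (SE; edgeR adjusted p = 2.14e-07) and 5.34 ± 0.35 for actc1.L (SE; edgeR adjusted p = 2.82e-06). The value for actc1.L was 6.55 without the intact library of batch 1, 4.60 without its half-size library and 6.11 without the intact library of batch 2. With all libraries in, both libraries of batch 2 exceeded the 4 others for both copies.

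Desmin, the intermediate filament of muscle, was nearly absent outside batch 2, where des.1.S reached 12.2 and 8.67 CPM. The 4 other libraries held between 0.0426 and 0.344 CPM. Likewise mylpf.S, the regulatory light chain of fast muscle myosin, measured 4.22 and 4.13 CPM in batch 2, 0.0983 CPM in the intact library of batch 3 and 0 in the 3 others. The myosin chaperone gene unc45b.S rose from 6.86 and 2.21 CPM in batch 1 to 54.9 and 39.1 CPM in batch 2, with 9.34 and 5.53 CPM in batch 3. In des.1.S, mylpf.S and unc45b.S both libraries of batch 2 exceeded the 4 others, and mylpf.S and des.1.S are among the genes chosen for that.

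The list also holds regulators of the lineage, which did not all go in the same direction. The muscle determination gene myod1.S stood at 55.8, 131 and 58.3 CPM in intact embryos and 56.3, 163 and 76.1 CPM in half-size embryos (batch 2 against batch 1, log2 difference 1.38 ± 0.12; edgeR adjusted p = 1.13e-05). For myf5, which is switched on earlier than myod1 in many vertebrates, the L copy was higher in batch 2 than in batch 1 by 0.66 ± 0.14 log2 units, and the S copy was not called, at 42.0, 35.7 and 32.8 CPM in intact embryos and 44.9, 58.4 and 40.9 CPM in half-size embryos. The somite regulator tcf15.L was raised in batch 2 far more, with 25.4 and 19.7 CPM against at most 2.65 CPM elsewhere. The exceptions among the genes called were t.L and t.S, the Brachyury gene of nascent mesoderm and notochord, and mespb.L, all highest in batch 1, and the splicing factor gene rbm20.S, highest in batch 3. Brachyury t.S fell from 452 and 519.6 CPM in batch 1 to 194 and 261 CPM in batch 2, opposite to the muscle genes. The calls of t.L and mespb.L were lost without the intact library of batch 2, and that of mespb.L also without the half-size library of batch 1 and with batch as the only term. The genes tcf15.L, unc45b.S and rbm20.S were called with both libraries of their highest batch above the 4 others.

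Genes of the early gastrula went the other way. The list holds organizer, mesendoderm and pluripotency genes expressed most strongly at the start of gastrulation. Of its 46 genes 39 were tested and 30 called (76.9%, against 49.0% of all genes). Of the 30, 22 were highest in batch 1 (3797 of the 11120 called over all genes) and 23 lowest in batch 2 (4344 of 11120). Between batches 2 and 1, 26 were lower and 2 higher in batch 2, and both libraries of batch 2 lay below the 4 others for 19 of the 39 (20.1% over all genes). The median difference was −0.62 log2 units in intact and −0.81 in half-size libraries, and batch 3 lay between, with −0.31 and −0.24 against batch 1. With batch as the only term, and so with the size difference in the error, the number called and lowest in batch 2 fell from 23 to 10, and the calls of eomes.L, eomes.S, gsc.L, gsc.S, foxi1.L, foxi1.S, mixer.S, nodal.L, wnt8a.L and wnt8a.S were lost.

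Among the mesendoderm genes, the homeodomain factor mix1.L measured 15.9, 3.56 and 9.04 CPM in intact embryos and 26.3, 3.02 and 15.2 CPM in half-size embryos, a log2 difference of −2.59 ± 0.23 between batches 2 and 1 (SE; edgeR adjusted p = 1.58e-05). The T-box gene eomes.S stood at 42.8, 15.3 and 29.6 CPM in intact embryos and 65.5, 31.9 and 60.9 CPM in half-size embryos, where the groups overlap because half-size libraries were higher throughout. The POU factor gene pou5f3.2.L, a homolog of mammalian Oct4, measured 467, 173 and 346 CPM in intact embryos and 706, 286 and 648 CPM in half-size embryos. In each of these genes batch 2 was lowest within either size group.

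The secreted head inducer cer1.S fell from 289 and 399 CPM in batch 1 to 119 and 137 CPM in batch 2, with 244 and 282 CPM in batch 3, and its homeolog cer1.L from 58.6 and 52.5 to 12.5 and 16.98 CPM, with 39.96 and 58.8 CPM in batch 3. The organizer gene gsc, a homeobox repressor, was low everywhere: gsc.L stood at 12.8, 7.85 and 9.93 CPM in intact embryos and 12.2, 9.37 and 8.87 CPM in half-size embryos. The call of gsc.L was also lost without either library of batch 1, without the intact library of batch 2 and with DESeq2. Among half-size libraries gsc.L was lowest in batch 3. Not every member followed, since 7 of the genes called were lowest in batch 3. The genes foxi1.L and foxi1.S, regulators of ectoderm and ionocytes, were highest in batch 2. The gene gs17.L was lowest in batch 2 but highest in batch 3, at 171, 46.0 and 296 CPM in intact embryos and 167, 95.7 and 473 CPM in half-size embryos. Also highest in batch 3 were gs17.S, mixer.S, pou5f3.2.S, wnt8a.S and, with nearly equal levels in batch 1, nodal.L, whose call was lost without the half-size library of batch 2.

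The axis lists share genes with the early gastrula list, and their members went in both directions. Of 48 tested genes of the dorsal organizer and midline 39 were called (81.2%, against 49.0% of all genes). Of these 26 were highest in batch 1, 11 in batch 2 and 2 in batch 3 (3797, 4469 and 2854 of the 11120 called over all genes). The Nodal-regulated secreted factor pinhead, pnhd.S, stood at 207, 74.5 and 121 CPM in intact embryos and 240.0, 76.9 and 122 CPM in half-size embryos, and the BMP-type ligand of the organizer, admp.S, at 121, 41.3 and 61.5 CPM in intact embryos and 117, 48.5 and 78.3 CPM in half-size embryos. The Wnt antagonist dkk1.S decreased in both other batches, most in batch 3, with 19.99, 7.96 and 2.70 CPM in intact embryos and 25.7, 14.8 and 7.96 CPM in half-size embryos. The highest difference upward in batch 2 within the list was that of shh.L, the hedgehog ligand of the midline, at 1.49 log2 units over batch 1.

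On the ventral side 24 of 41 tested genes of the BMP pathway list were called (58.5%, against 49.0% of all genes). Of these 9, 10 and 5 were highest in batches 1, 2 and 3 (3797, 4469 and 2854 of the 11120 called over all genes). The Wnt ligand wnt8a.L of ventral and lateral mesoderm fell from 68.2 and 116 CPM in batch 1 to 37.4 and 49.9 CPM in batch 2, and the BMP target ventx1.2.L from 74.8 and 99.6 to 43.1 and 34.5 CPM. The BMP target msx2.L was instead highest in batch 3, with 93.2 and 71.7 CPM against 57.6 and 38.6 CPM in batch 1. Of 34 endoderm genes tested 28 were called (82.4%, against 49.0% of all genes), and 10, 13 and 5 were highest in batches 1, 2 and 3. The medians of both lists lay within 0.18 log2 units of 0 in every pair of batches and either size group. The endoderm list thus had many called members, and neither list had a common direction.

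Neural and epidermal genes were, where called, more often highest in batch 2 than in the other batches. Of 65 tested genes of the neural plate and its border 38 were called (58.5%, against 49.0% of all genes). Of the 38, 26 were highest in batch 2 (4469 of the 11120 called over all genes). For 2 of the 38 only 1 batch reached the level needed for testing. In the list as a whole the median difference between batches 2 and 1 was 0.19 log2 units in intact and 0.38 in half-size libraries. Among the named members are genes of the eye field. The homeobox gene rax.L stood at 7.02, 60.8 and 12.2 CPM in intact embryos and 2.26, 25.4 and 3.18 CPM in half-size embryos, and pax6.S.g at 1.54, 24.9 and 3.98 CPM in intact embryos and 0.639, 14.7 and 2.16 CPM in half-size embryos. The log2 differences between batches 2 and 1 were 3.29 ± 0.19 and 4.21 ± 0.22 (SE; edgeR adjusted p = 1.31e-06 and 6.65e-07). In both genes both libraries of batch 2 exceeded the 4 others.

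The neural adhesion molecule ncam1.S was highest in batch 2, with 5.403, 19.3 and 6.39 CPM in intact embryos and 4.13, 14.8 and 4.66 CPM in half-size embryos. The neural progenitor gene sox3.S.g was highest in batch 1, with 219, 135 and 108 CPM in intact embryos and 223, 176 and 169.6 CPM in half-size embryos. For sox2.S, which is expressed in the whole neural plate, the values were 26.6, 31.9 and 23.3 CPM in intact embryos and 29.1, 36.5 and 25.8 CPM in half-size embryos, and its call was lost without any 1 of the 4 libraries of batches 2 and 3. With batch as the only term the calls of sox2.S and sox3.S.g were lost.

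In the ectoderm outside the neural plate 36 of 51 tested epidermis genes were called (70.6%, against 49.0% of all genes). Of these 20 were highest in batch 2 (4469 of the 11120 called over all genes). Both libraries of batch 2 lay above the 4 others for 10 of the 51 (20.4% over all genes). The secreted lectin gene itln1.L stood at 41.5, 187 and 39.2 CPM in intact embryos and 10.6, 81.4 and 13.6 CPM in half-size embryos. The cement gland and mucus gene agr2.L stood at 14.1, 68.3 and 37.2 CPM in intact embryos and 6.13, 28.3 and 8.83 CPM in half-size embryos. For agr2.L the batches overlap when size is ignored, and with batch as the only term its call was lost, as was that of foxj1.2.L. The keratin krt8.L, one of the abundant transcripts, measured 1149.6, 2131 and 1441 CPM in intact embryos and 996, 2092 and 1364 CPM in half-size embryos. Of 30 tested genes of multiciliated cells and ionocytes 13 were called (43.3%, near the 49.0% of all genes). Of the 13, 12 were highest in batch 2 (4469 of the 11120 called over all genes). For 1 of the 13 only 1 batch reached the level needed for testing. Without it 12 of 29 were called, 11 of these highest in batch 2. Both libraries of batch 2 lay above the 4 others for 5 of the 30 (20.4% over all genes). Among the genes highest in batch 2 was the ciliary regulator foxj1.2.L, with 2.29, 7.13 and 2.95 CPM in intact embryos and 0.256, 2.37 and 0.341 CPM in half-size embryos.

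Ribosomal protein genes were mostly lowest in batch 3. Of 56 tested ribosomal protein genes 49 were called (87.5%, against 49.0% of all genes). Of the 49, 37 were lowest in batch 3 (2572 of the 11120 called over all genes). The median difference of batch 3 was −0.37 log2 units from batch 1 and −0.39 from batch 2 in intact libraries, and −0.24 and −0.27 in half-size libraries. Among the genes called, log2 differences between batches 3 and 2 ran from −0.90 for rplp0.S to 0.35 for rpl29.L. The falls of rplp0.S and rpl8.S (−0.85) were larger than the list median of −0.35. The gene rpl8.S stood at 92.6, 103 and 56.1 CPM in intact embryos and 85.2, 116 and 65.2 CPM in half-size embryos. For rplp0.S the values were 65.8, 86.3 and 43.1 CPM in intact embryos and 53.7, 88.3 and 50.2 CPM in half-size embryos. Both encode proteins of the large ribosomal subunit. The gene rpl3.S was instead lowest in batch 1, with 296, 435 and 427 CPM in intact embryos and 282, 434 and 401 CPM in half-size embryos. Of 86 tested genes of oxidative phosphorylation 47 were called (54.7%, near the 49.0% of all genes). Of the 47, 28 were highest in batch 1 (3797 of the 11120 called over all genes) and 25 lowest in batch 3 (2572 of 11120). The median of batch 3 against batch 1 was −0.20 in intact and −0.18 in half-size libraries. The ATP synthase subunit gene atp5a1.S was instead highest in batch 2, at 65.3, 128 and 97.5 CPM in intact embryos and 57.3, 127 and 101 CPM in half-size embryos.

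Of 73 tested cell cycle genes 44 were called (60.3%, against 49.0% of all genes), and the median lay within 0.08 log2 units of 0 in every pair of batches. Of the 44, 22, 14 and 8 were highest in batches 1, 2 and 3 (3797, 4469 and 2854 of the 11120 called over all genes). The smallest p of the list belonged to rrm2.1.L, which encodes a small subunit of ribonucleotide reductase, the enzyme that makes deoxyribonucleotides. It stood at 291, 13.9 and 188 CPM in intact embryos and 269, 12.3 and 156 CPM in half-size embryos, a log2 difference of −4.42 ± 0.11 between batches 2 and 1 (SE; edgeR adjusted p = 7.19e-09). The related genes rrm2.2.L and rrm2.2.S were higher in batch 2 than in batch 1 by 0.56 ± 0.13 and 0.54 ± 0.11 log2 units, calls lost without the intact library of batch 2. How reads shared by such near copies were assigned is not stated, so the split between them is uncertain, and rrm2.2.L and rrm2.2.S were chosen after their values were seen. The licensing inhibitor geminin, gmnn.S, fell from 411 and 459 CPM in batch 1 to 158 and 166 CPM in batch 2, and cyclin E, ccne1.S, from 318 and 319 to 167 and 166 CPM, with batch 3 between in both genes.

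Many of the largest differences were in genes outside these lists. In batch 1, sdk2.S, a sidekick adhesion molecule of the nervous system, stood at 0.748 CPM in intact embryos and 0.724 CPM in half-size embryos, against 46.0 and 53.9 CPM in batch 2 and 56.97 and 79.9 CPM in batch 3. The carnosine dipeptidase gene cndp1.L had the same pattern, with 0.623 and 0.426 CPM in batch 1, 26.4 and 21.9 CPM in batch 2 and 64.1 and 48.9 CPM in batch 3. The difference between batches 3 and 1 was 6.52 ± 0.19 log2 units for sdk2.S and 6.73 ± 0.20 for cndp1.L (SE; edgeR adjusted p = 1.35e-08 for each). Of the genes raised in batch 1, morc1.S, of a family of chromatin ATPases known from germ cells of mice, measured 13.5 and 16.5 CPM against at most 0.504 CPM in the other libraries. The hormone gene sst.L, somatostatin, and the retinal matrix gene impg2.L were also highest there, at 5.82 and 8.52 CPM and at 6.57 and 7.37 CPM. The same rule gave fstl5.S and me1-like.L upward and pkd2l1.L, thy1.L and kidins220.S downward in batch 1.

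In batch 2 the largest rise, on log2 values with a prior count of 2, was that of parp4.L, of the poly(ADP-ribose) polymerase family, at 16.8 CPM in intact embryos and 20.5 CPM in half-size embryos against at most 0.256 CPM elsewhere. It was followed by the neurofilament-like gene ina.S, desmin and mylpf.S (above), and dbh.S, dopamine beta-hydroxylase, at 3.56 and 3.93 CPM against at most 0.0416 CPM. The kinase gene camk4.L was lowest in batch 2, with 3.45, 0.208 and 4.52 CPM in intact embryos and 3.96, 0.0504 and 3.49 CPM in half-size embryos. The rule for falls in batch 2 also gave scgn.L, thnsl2.L, pde1c-like.L and grik4-like.S. The rule itself required both libraries of batch 2 to lie outside the range of the other 4.

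In batch 3, the calcium sensor gene scgn.L (secretagogin) reached 49.6 and 39.4 CPM against at most 1.32 CPM elsewhere, and mpnd.S, which encodes an MPN domain protein, 26.7 and 34.6 CPM against at most 0.374 CPM. The glutathione peroxidase gene gpx1.S was nearly silent in batch 3, with 21.6, 27.4 and 0.688 CPM in intact embryos and 24.3, 14.8 and 0.758 CPM in half-size embryos. Its homeolog gpx1.L was not called between batches (F test, edgeR adjusted p = 0.108), at 17.3, 19.0 and 15.1 CPM in intact embryos and 14.4, 19.5 and 14.7 CPM in half-size embryos. The loss in batch 3 was therefore measured for the S copy, and for the L copy no difference was called. The rule further gave rcvrn.1.L, nmi.S and thnsl2.L upward and ndst4.L, lrit3.S, sst.L and tmem132b.L downward.

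Some genes were present in the libraries of certain batches and close to absent from the rest. Over the whole table, 73 genes had at least 1 CPM in both libraries of 1 or 2 batches and at most 3 counts in each library of the others, 32 of them with a symbol. They were on in batch 1 alone (13 genes), batch 2 alone (14), batch 3 alone (19), batches 1 and 2 (8), batches 1 and 3 (7) or batches 2 and 3 (12). With a stricter level of 2 CPM there were 34 such genes, and with 0 counts in place of at most 3 there were 20. Because the rule used the batch, these numbers describe and are not tested.

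The most abundant of the 32 with a symbol was rcvrn.1.L, which encodes the photoreceptor calcium sensor recoverin. It held 1496 counts in the intact and 982 in the half-size library of batch 3 (73.5 and 37.2 CPM) and 0 counts in the 4 other libraries, and so was at least 418-fold higher in batch 3 when 3 counts are taken as the floor of each library. DESeq2 did not call this gene, nor fstl5.S, which held 0 counts in batches 2 and 3 and 95 and 70 counts in batch 1. The heparan sulfate sulfotransferase gene ndst4.L was the reverse, with 239 and 164 counts in batch 1, 234 and 119 in batch 2 and 0 and 1 in batch 3 (intact first). The ratio was 367, with a 95% counting interval from 65.7 to 14511. Such intervals and floors cover counting error only.

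The threonine synthase-like gene thnsl2.L was on in batches 1 and 3, with 29 and 28 counts in batch 1 and 233 and 353 in batch 3 against 3 and 0 in batch 2. The kainate receptor gene grik4-like.S was on in the same batches, with 66 and 50 counts in batch 1 and 136 and 129 in batch 3 against 1 and 2 in batch 2. The channel gene pkd2l1.L was off in batch 1, with 2 and 0 counts there, 109 and 69 in batch 2 and 179 and 291 in batch 3. The surface glycoprotein gene thy1.L was off in the same batch, with 0 counts in both libraries and between 57 and 81 counts in the 4 others. The retinal gene lrit3.S was off in batch 3, with 0 counts in both libraries and between 31 and 69 in the others. Alpha-internexin, ina.S, a neuronal intermediate filament, was on in batch 2, with 322 counts in the intact and 60 in the half-size library, against at most 2 elsewhere. That the libraries of a batch fell on the same side in these 8 genes is set by the rule.

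Of the 73 genes, 12 had a tested homeolog. In 2 of the 12 the homeolog reached 1 CPM in all 6 libraries. In 2 the homeolog was also on in some batches and off in others. These 2 are mylpf.L and mylpf.S, which are homeologs of each other. The F test called the homeolog in 8 of the 12 (49.0% called over all genes). For lrit3.S, the L copy was among those called (F test, edgeR adjusted p = 0.0359) and was also lowest in batch 3. It stood at 1.41, 1.76 and 0.934 CPM in intact embryos and 2.13, 1.71 and 0.682 CPM in half-size embryos.

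**Figure D3:**
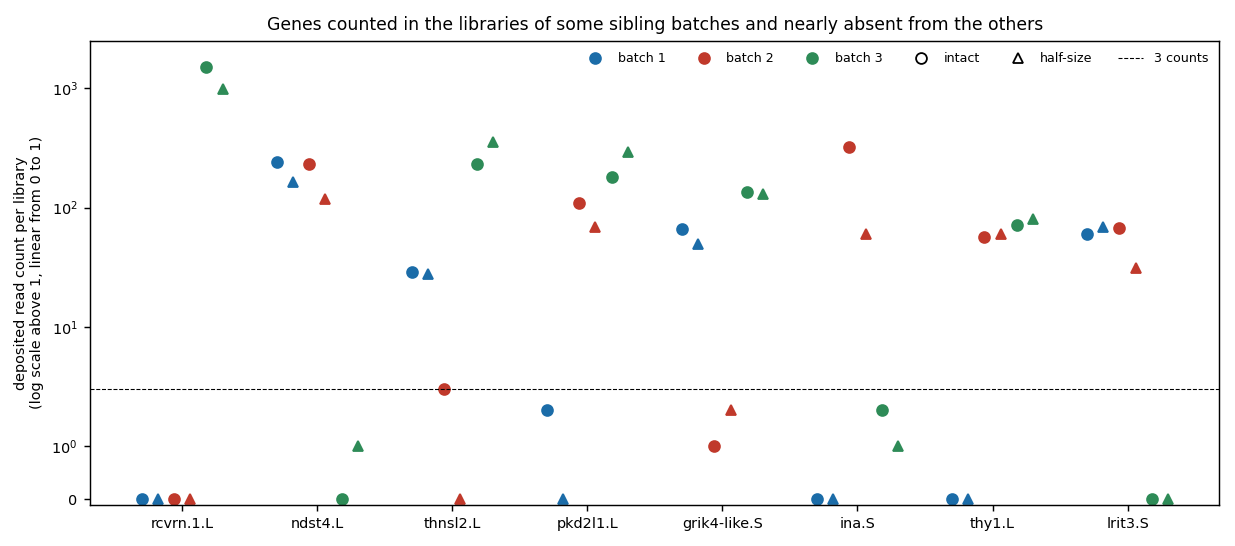
Deposited read counts per library, on a log scale above 1, of the 8 most abundant genes with a symbol that were on in some batches and at most at 3 counts (dashed line) in the others (circles intact, triangles half-size; colours give the batch). By the rule that chose the genes, both libraries of a batch lie on the same side of the dashed line, as for rcvrn.1.L, with 1496 and 982 counts in batch 3 and 0 in the others.

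The balance between homeologs also differed between batches. The table holds 8660 pairs of L and S copies, of which 6162 had at least 10 counts for the pair in every library. A test of the interaction of homeolog and batch, in which each library serves as its own scale, called 2227 pairs (36.1%; edgeR, adjusted over pairs). In 1047 of these the log2 ratio of L to S differed by at least 1 between a pair of batches and in 372 by at least 2, and in 246 the more abundant copy changed from one batch to another. The median of the largest batch difference over the pairs tested was 0.69 log2 units. Read with limma on the log2 ratio, no pair was called (smallest adjusted p = 0.0618, with 1989 pairs at an unadjusted p under 0.05), and with a trend of the variance on the count of the rarer copy, an alternative added after the data were seen, limma called 2177. The sources used here do not give the rule by which reads matching both copies were assigned.

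Among the 6 pairs named, sdk2 encodes an adhesion molecule. Its L copy gave 96.3%, 48.4% and 28.2% of the counts of the pair in intact and 94.1%, 42.2% and 15.2% in half-size libraries of batches 1, 2 and 3. The S copy made the difference in batch 1, as given above, while sdk2.L stood at 19.3, 43.1 and 22.4 CPM in intact embryos and 11.6, 39.4 and 14.4 CPM in half-size embryos. The neuronal scaffold gene kidins220 had a similar order, with an L share of 98.4%, 73.6% and 38.4% in intact and 98.1%, 59.4% and 34.2% in half-size libraries. There the S copy rose from 0.332 and 0.341 CPM in batch 1 to 20.7 and 25.5 CPM in batch 3, and the L copy lay between 11.04 and 19.9 CPM throughout, with a call that was lost without either library of batch 1, without the half-size library of batch 2 and with batch as the only term. In both pairs the dominant copy was L in batch 1 and S in batch 3.

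For stannin, snn, the L share was 55.2%, 85.9% and 75.9% in intact and 55.5%, 84.7% and 76.8% in half-size libraries. The tetraspanin pair tspan1 had an L share of 55.5%, 87.4% and 63.5% in intact and 60.6%, 91.5% and 74.9% in half-size libraries. In both pairs the copies were closest to equal in batch 1 and most unequal in batch 2. The leucine zipper pair tsc22d1-like went the other way, with an L share of 82.0%, 47.7% and 65.7% in intact and 88.9%, 58.0% and 79.0% in half-size libraries. The pair clca3p-like was almost all L, at least 98.5% in every library, and its call rested on an S copy that went from 2.54 and 3.79 CPM in batch 1 to 0.197 and 0.189 CPM in batch 3.

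**Figure D4:**
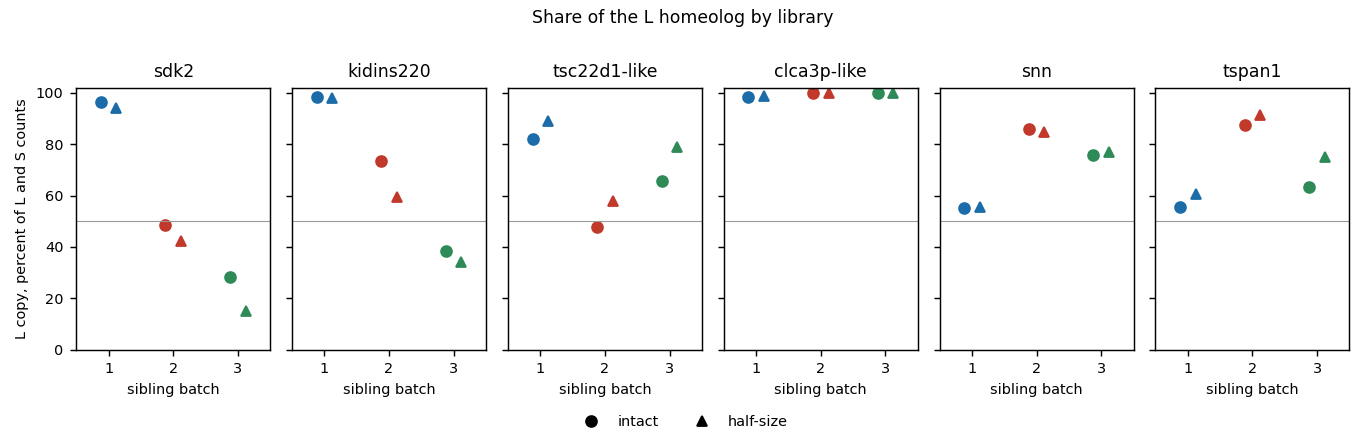
Share of the L copy among the L and S counts of a pair, in percent, for the 6 homeolog pairs with symbols and the smallest p among those whose log2 ratio differed by at least 2 between batches (circles intact, triangles half-size; each point is 1 library). For sdk2 the share goes from 96.3% and 94.1% in batch 1 to 28.2% and 15.2% in batch 3, and for clca3p-like it stays above 98%.

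Lists of maternal stores and of material from outside the embryo were read in the same way. Of 39 tested genes of germ plasm and maternal stores 21 were called (53.8%, near the 49.0% of all genes). Of the 21, 11 were highest in batch 1 (3797 of the 11120 called over all genes) and 12 lowest in batch 2 (4344 of 11120). Among the 12 was the oocyte linker histone gene h1foo.S at 177, 50.1 and 147 CPM in intact embryos and 157, 45.8 and 127 CPM in half-size embryos. The egg envelope gene zp3.S was highest in batch 3, with 22.2, 17.7 and 33.9 CPM in intact embryos and 24.5, 19.9 and 43.8 CPM in half-size embryos. Testis and sperm markers summed to between 34.7 and 45.3 CPM over 16 genes in the table, with zpbp2.L at 0 in all libraries. Of the 8 tested 6 were called (against 49.0% of all genes). Of the 6, 3, 2 and 1 were highest in batches 1, 2 and 3 (3797, 4469 and 2854 of the 11120 called over all genes). The calls of tex14.L, tex15.L and piwil1.L were lost with DESeq2 and without the half-size library of batch 1 or of batch 3. Those of tex15.L and piwil1.L were also lost without the intact library of batch 3 and with batch as the only term. Blood and myeloid markers, 28 genes, summed to 48.4, 79.5 and 58.1 CPM in intact embryos and 90.8, 55.5 and 71.6 CPM in half-size embryos. The genes hbd.S, mmp7.S and spi1.S were at 0 throughout. Of 10 tested 6 were called (60.0%, against 49.0% of all genes). Of the 6, 4 were highest in batch 2 (4469 of the 11120 called over all genes) and 2 in batch 1 (3797 of 11120). For 1 of the 6 only 1 batch reached the level needed for testing. Without it 5 of 9 were called, 3 highest in batch 2 and 2 in batch 1. The myeloid factor gene spib.L stood at 0.997, 22.7 and 3.39 CPM in intact embryos and 0.426, 10.1 and 0.303 CPM in half-size embryos. The gene cebpa.S was instead lowest in batch 2, at 23.2, 17.8 and 22.7 CPM in intact embryos and 35.6, 13.7 and 32.6 CPM in half-size embryos. Its log2 difference between batches 2 and 1 was −0.85, and −0.40 without the half-size library of batch 2. With batch as the only term the call of cebpa.S was lost.

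The sum of oviduct and liver markers was higher in batch 1, where most of it came from the progesterone receptor homeologs pgr.L and pgr.S. Over 15 genes in the table the markers summed to 11.2 CPM in the intact and 14.7 CPM in the half-size library of batch 1, and to between 1.42 and 2.24 CPM in the 4 others. The serum genes apoa1.L, apob.L, fga.L and fga.S and the mucin muc2.S were at 0 in all libraries. All 4 genes tested were called (against 49.0% of all genes) and highest in batch 1. Of the 4, 1 reached the level needed for testing in only 1 batch. The progesterone receptor homeologs led. The gene pgr.L stood at 5.78, 0.346 and 0.197 CPM in intact embryos and 7.11, 0.554 and 0.644 CPM in half-size embryos. Its homeolog pgr.S stood at 2.74, 0.208 and 0.344 CPM in intact embryos and 4.09, 0.0504 and 0.189 CPM in half-size embryos. The oestrogen receptor gene esr1.L and the fibrinogen gene fgb.L were the others, and the call of fgb.L was lost with DESeq2 and limma-voom and without any of the 4 libraries of batches 1 and 3. Whether the receptor genes stand for oviduct or liver tissue in these libraries was not tested. The part of the oviduct and liver markers in the other differences was not tested either.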

How the data were processed

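Poly(A) libraries were made per the labels' protocols with a strand-specific kit. Raw read counts, 1 whole number for each gene in each library, were deposited and used unchanged. Per the submitters' processing notes TopHat2, HTSeq and DESeq were used; the sources used here give no versions, genome build or annotation, nor whether counting used strand, so antisense and overlapping genes are uncertain. A deposited table comparing intact and half-size embryos was not used. Of 45090 genes, 10042 had no count and 27590 carry only a model or locus identifier; 13229 of those tested had a symbol.

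The test was glmQLFTest of edgeR 4.0.16 in R 4.3.3 (quasi-likelihood, TMM, filterByExpr with the batch as group, batch tested, size group as block), two-sided, with Benjamini-Hochberg adjustment over the genes tested and a threshold of 0.05. The replicate numbers pair the libraries, since the labels name siblings. Log2 values per library carry a prior count of 2. Each SE was derived as the absolute log2 difference divided by the square root of its quasi-likelihood F statistic, and so is approximate. DESeq2 1.42.0 and limma 3.58.1 were alternatives. The scripts were tested on simulated data. Each list is described by counts and medians, without a set test; 22 lists were matched by symbol or by synonyms in the Xenopus_laevis_v10.1 reference table.

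The members and lists were chosen with earlier results of these data known. Named genes were, per batch and direction, the 5 with the largest difference among genes with a symbol, at least 1 CPM, a call and no overlap with the other libraries; per list, up to 4 called members with the smallest p, with the defining members; 6 homeolog pairs; and 8 on and off genes. The genes hoxb7.L, hoxd1.L, hoxd1.S, cdx1.L, cdx1.S, cdx2.L, cdx4.L, meis1.L, tcf15.L, rbm20.S, mespb.L, shh.L, mixer.S, nodal.L, pou5f3.2.S, gpx1.L and the list members given as not called were named after their values were seen.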

Additional observations from a re-analysis of the deposited data

Results flagged for a closer look

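In 3 cases the median of a gene list between batches had opposite signs in intact and in half-size libraries, and in none of them was this difference tested. The apoptosis and p53 list differed between batch 3 and batch 1 by a median of 0.16 log2 units in intact and −0.14 in half-size libraries, over 41 genes. The glutathione and xenobiotic metabolism list differed between the same batches by −0.13 in intact and 0.13 in half-size libraries, over 30 genes. The hypoxia and glycolysis list differed between batch 2 and batch 1 by 0.10 in intact and −0.18 in half-size libraries, over 28 genes.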

How the results depend on the processing

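Counts of genes that differ between batches depended on what entered the error. With batch as the only term the F test called 5986 genes in place of 11120, and the comparisons of batches 2 and 1, 3 and 1, and 3 and 2 called 5691, 1546 and 3274 in place of 9215, 4992 and 7004. DESeq2 called 8179 genes over the 3 batches, and 6827, 3256 and 4797 genes for the pairs 2 and 1, 3 and 1, and 3 and 2. With single libraries or a whole batch left out, the F test called between 4663 and 10840 genes, and the pairs 2 and 1, 3 and 1, and 3 and 2 between 5938 and 9727, 2488 and 5345, and 3999 and 8454. The lowest F test count was that without both libraries of batch 2. The size comparison went from 0 genes to 1283 with the replicate number as a block, the pairing that the labels give. Homeolog balance went from 2227 pairs to 0 with limma on the ratio, and the on and off genes from 73 to 34 and 20 under stricter limits. Of the list counts, early gastrula genes lowest in batch 2 went from 23 to 10 with batch as the only term.

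Among 148 named genes with a call, none changed direction under any alternative that gave a value; the filter by size group, added after the data were seen, gave one for 132. Calls were lost for 10 with DESeq2, 1 with limma-voom, 28 with batch as the only term (fgb.L, msx2.L and rrm2.2.L among them), 0 with DESeq2 size factors or without the filter, and between 5 and 10 with a library left out. Scaling by DESeq2 size factors moved the median of all genes by less than 0.1 log2 units. With 2 residual degrees of freedom and 1 library per batch and size, a batch difference that depends on size cannot be told apart from error. Below 1 CPM counting error limits what can be called. Leaving a library out lowers the residual degrees of freedom further, so a call lost then need not show dependence on that library.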

Other observations

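Genes of stress responses differed between batches without a common direction. Of 38 tested heat shock and chaperone genes 22 were called (57.9%, against 49.0% of all genes). Of these 8, 10 and 4 were highest in batches 1, 2 and 3 (3797, 4469 and 2854 of the 11120 called over all genes). For 1 of the 22 only 1 batch reached the level needed for testing. Without it 21 of 37 were called. The cytosolic chaperone gene hsp90aa1.1.L stood at 8.06, 84.9 and 19.4 CPM in intact embryos and 6.98, 134 and 39.4 CPM in half-size embryos of batches 1, 2 and 3, and the co-chaperone dnajb1.L at 5.74, 14.4 and 6.19 CPM in intact embryos and 5.41, 23.2 and 10.3 CPM in half-size embryos. The small heat shock gene hspb1.L was instead at 0 in batch 2, with 2.80 and 1.93 CPM in batch 3.

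Of 41 tested apoptosis and p53 genes 23 were called (56.1%, near the 49.0% of all genes). Of the 23, 13 were highest in batch 1 (3797 of the 11120 called over all genes) and 15 lowest in batch 2 (4344 of 11120). The survivin gene birc5.1.S fell from 54.5 and 58.3 CPM in batch 1 to 12.3 and 13.1 CPM in batch 2. The antiproliferative gene btg2.S was highest in batch 2, with 62.7 and 70.2 CPM against 13.3 and 16.7 CPM in batch 1, and the caspase gene casp10.L in batch 3, with 11.3 and 10.7 CPM against at most 1.799 CPM elsewhere. The oxidoreductase gene tp53i3.S, a target of p53 in humans, was low in batch 1, with 0.956 and 0.894 CPM, and lay between 6.73 and 10.1 CPM in the others.

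Of 50 tested immediate early and wounding genes 24 were called (48.0%, near the 49.0% of all genes). For 1 of the 24 only 1 batch reached the level needed for testing. Without it 23 of 49 were called, 16 of these highest in batch 2. With it, 17 of the 24 were highest in batch 2 (4469 of the 11120 called over all genes). Among the 17 was junb.S at 0.457, 3.04 and 0.983 CPM in intact embryos and 1.36, 7.31 and 1.17 CPM in half-size embryos. The collagenase gene mmp1.S was highest in batch 3, with 4.33 and 2.77 CPM. Its homeolog mmp1.L was instead highest in batch 2, with 17 counts in the intact and 20 in the half-size library and 0 in the libraries of the other batches. The call of mmp1.L was lost with DESeq2. Of 28 hypoxia and glycolysis genes 20 were called (71.4%, against 49.0% of all genes). Of the 20, 10 were highest in batch 1 (3797 of the 11120 called over all genes). An example was the hypoxia-induced mitochondrial gene higd1a.S with 14.3 and 15.8 CPM in batch 1 and between 3.71 and 5.53 CPM in the others. Of 30 genes of glutathione and xenobiotic metabolism 19 were called (63.3%, against 49.0% of all genes). Of the 19, 9 were highest in batch 3 (2854 of the 11120 called over all genes) and 10 lowest in batch 2 (4344 of 11120). For 1 of the 19 only 1 batch reached the level needed for testing. Without it 18 of 29 were called, 9 of these highest in batch 3. The retinoic acid synthesis gene aldh1a2.L was lowest in batch 3, at 167 and 203 CPM against 251 and 343 CPM in batch 1.

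Of 9 tested genes of antigen presentation and the interferon response 7 were called (77.8%, against 49.0% of all genes). Of the 7, 4, 1 and 2 were highest in batches 1, 2 and 3 (3797, 4469 and 2854 of the 11120 called over all genes). The interferon regulatory factor irf7.L stood at 0.332, 1.73 and 4.28 CPM in intact embryos and 0.298, 2.02 and 5.001 CPM in half-size embryos, and the immunoproteasome subunit psmb8.L at 7.15, 1.73 and 1.57 CPM in intact embryos and 7.11, 0.857 and 1.52 CPM in half-size embryos.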
